A study of Mus musculus with 6 samples.

Results

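The matrix metalloproteinases (MMPs), the ADAMTS proteinases, the ADAMTS-like proteins and their tissue inhibitors, the TIMPs, were examined in RNA-Seq counts of mouse lip. Genes were taken by symbol, beginning with Mmp, Adamts, Adamtsl or Timp and a number, and 49 such genes had a row in the count matrix. Of these, 39 reached 1 CPM, the count of a gene scaled to the total of its library, in 3 or more of the 6 libraries and form the set described here, among 15009 genes of 26814 that passed the same filter. Top lip tissue came from adult female mice on the C57BL/6J background, with 1 library per mouse. There were 3 wild type (WT) mice and 3 Gtf2ird1 knockout (KO) mice, and the KO mice carried the targeted allele Gtf2ird1 tm1Hrd. The series asks what the loss of GTF2IRD1, a transcription factor of the region deleted in Williams-Beuren syndrome, does to gene expression in this tissue. The whole lip was homogenised, so epidermis, dermis, hair follicles, muscle and vessels contribute to every value, and fewer cells of a type cannot be told apart from less RNA per cell.

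MMPs are zinc-dependent proteinases that are made as inactive precursors and cut collagens, gelatin, laminins and many other matrix and cell-surface proteins. The ADAMTS proteinases are secreted enzymes with thrombospondin repeats that process procollagens or cut proteoglycans such as versican and aggrecan, and the ADAMTS-like proteins share those repeats but lack the catalytic domain. TIMPs bind the active site of MMPs and block it, and TIMP3 also inhibits several ADAMTS enzymes. In skin these genes are expressed in large part by dermal fibroblasts, and several are induced in keratinocytes at wound edges.

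Of the 39 genes, 36 were over the minimum in all 6 libraries and none passed through the libraries of a single genotype. Timp4 passed through 3 WT libraries and 1 library labelled KO, and Mmp27 and Adamts19 through 1 WT library and 2 libraries labelled KO. The nearest gene outside was Adamtsl2, over the minimum in 2 WT libraries, with 0.907, 2.08 and 1.30 CPM in WT1, WT2 and WT3 and 0.819, 0.625 and 0.686 CPM in KO1, KO2 and KO3. Total counts lay between 20164081 and 29491767 per library, and 3 counts corresponded to 0.0986 to 0.154 CPM. Gtf2ird1 itself was higher in the libraries labelled KO (144 to 166 CPM) than in the WT libraries (70.2 to 78.2 CPM), so directions below are those of the labels. KO3 stood apart from the other libraries labelled KO. Over all tested genes its log2(CPM + 0.5) values had Pearson correlations of 0.959 with KO1, 0.971 with KO2 and 0.959 to 0.965 with the WT libraries, whereas that of KO1 with KO2 was 0.987. Counts of called members, and the members whose call changed, are therefore also given without KO3.

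Genotypes were compared with edgeR's quasi-likelihood test, and adjusted p-values below come from it, with Benjamini-Hochberg adjustment over all 15009 genes, unless another test is named. At an adjusted p under 0.05, 5 of the 39 genes were called (12.8%), against 6.47% of all tested genes. Of these, 4 were lower and 1 was higher in the libraries labelled KO. The lower genes were Adamtsl4, Adamtsl5, Adamts14 and Timp3, and the higher gene was Adamts3. Lower calls made up 10.3% of the members against 2.09% of all tested genes, and higher calls 2.56% against 4.38%. At an unadjusted p under 0.05, 8 members were lower (20.5%) and 2 higher (5.13%), where the shares over all tested genes were 16% and 13.5%. edgeR's exact test called 7 members lower (17.9%) and 2 higher (5.13%), against 7.15% and 7.76% of all tested genes. The genotypes were apart, with the 3 KO values lower, in 8 members (20.5%), close to the 18.1% of all tested genes, and with the KO values higher in 3 members (7.69%), against 13.5%. Negative log2 fold changes were found in 30 members (76.9%) and in 52% of all tested genes, and the median was -0.28 over the members and -0.02 over all tested genes.

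The calls depended on which libraries were compared. Without KO replicate 3, 11 members were lower (28.9%, against 16.2% of all genes tested in that comparison) and 1 was higher (2.63%, against 16.9%). KO3 was set apart for its likeness to the WT libraries, and omitting it enlarges the change wherever its value lay nearest to the WT. Results without KO3 are therefore given as description, here and for single genes below. When any 1 of the other 5 libraries was left out, 0 members passed in the quasi-likelihood test. In those 5 comparisons 0.122 to 0.419% of all tested genes were called lower and 1.41 to 3.22% higher. Each of the 5 called genes kept its direction whichever library was omitted. Their genotypes did not overlap, so this was fixed in advance and adds no support.

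**Figure D1:**
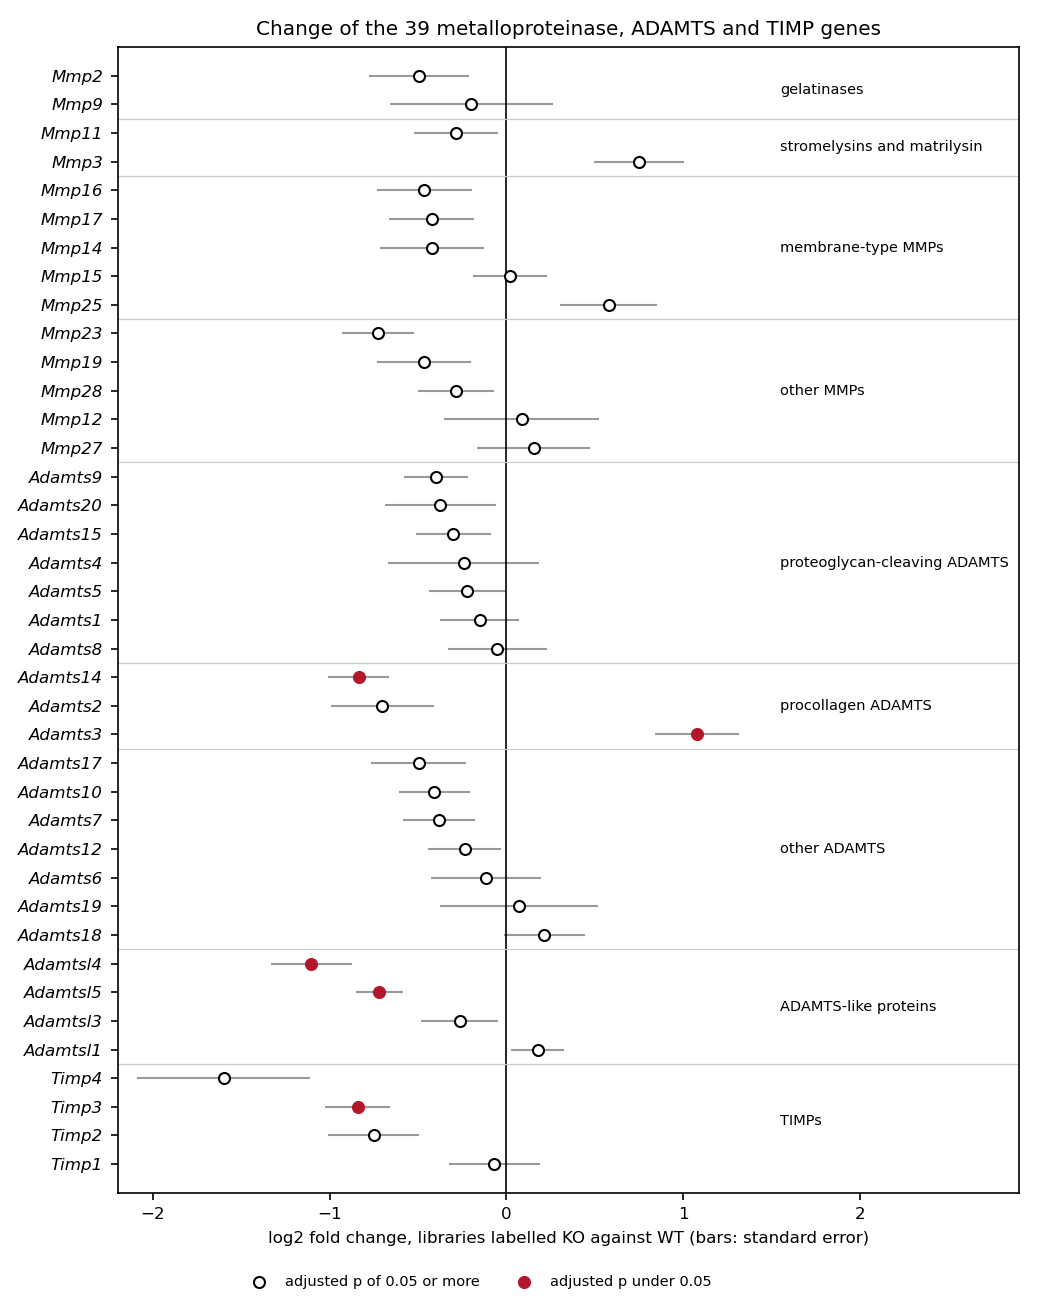
Log2 fold change of each of the 39 genes (horizontal axis, libraries labelled KO against WT, with standard errors), grouped by role. Filled points mark the 5 genes with an adjusted p under 0.05, of which Adamts3 alone lies to the right of 0.

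All 4 TIMP genes had negative log2 fold changes, and Timp3 passed the test. Timp3 (ENSMUSG00000020044.13, chromosome 10, 86300372 to 86349506, plus strand), which stays bound to the matrix and inhibits several ADAMTS and ADAM enzymes besides MMPs, had WT levels of 308 (WT1), 379 (WT2) and 274 CPM (WT3), against 165 (KO1), 155 (KO2) and 216 CPM (KO3). The genotypes did not overlap, and its level fell to 0.558 of that in the WT (log2 fold change -0.84, SE 0.18, adjusted p = 0.0371). Timp3 lies within Syn3 on the opposite strand and shares 1733 exon bases with it, 21.3% of its exons, and whether counting used the strand is not stated. Syn3 itself had 1.17 to 1.70 CPM among WT libraries and 0.549 to 1.28 among those labelled KO.

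Timp2, which inhibits MMPs and also bridges pro-MMP2 to its activator MMP14, was the most abundant member per exon length. It had 599.7, 455 and 608 CPM in WT1, WT2 and WT3 and 241, 280.1 and 467 CPM in KO1, KO2 and KO3. KO1 and KO2 were below all WT libraries, whereas KO3 was above WT2, and the test was not passed (log2 fold change -0.75, SE 0.26, adjusted p = 0.106). Without KO3 the log2 fold change was -1.08 with an adjusted p of 0.00307, within a range of 0.00307 to 0.352 over all alternatives. Timp4, the least widely expressed TIMP, had WT levels of 3.56 (WT1), 4.42 (WT2) and 1.35 CPM (WT3), against 0.665 (KO1), 0.822 (KO2) and 1.60 CPM (KO3). WT3 lay below KO3, so the groups overlapped (log2 fold change -1.60, SE 0.49, adjusted p = 0.0836), and the adjusted p lay between 0.00627 and 0.291 over the alternatives. Without KO3 its log2 fold change was -2.04 with an adjusted p of 0.0125. Timp4 shares 90 exon bases with Syn2 on the opposite strand, which had 3.74 to 5.12 CPM. Timp1, the inducible inhibitor that also binds pro-MMP9, had 3.59 to 4.45 CPM among WT libraries and 2.63 to 4.71 among those labelled KO. Its WT values lay inside the range of the KO values (log2 fold change -0.07, SE 0.26, adjusted p = 0.876), and the sign of its log2 fold change turned without WT replicate 2 (0.012) and without KO replicate 2 (0.22).

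Among the 4 ADAMTS-like genes, 2 passed the test, both lower in the libraries labelled KO. Adamtsl4 (chromosome 3, 95676201 to 95687917, minus strand), whose product binds fibrillin microfibrils, had 87.6, 98.1 and 85.3 CPM in WT1, WT2 and WT3 and 30.4, 37.8 and 57.9 CPM in KO1, KO2 and KO3. Every KO value was below every WT value (log2 fold change -1.10, SE 0.23, adjusted p = 0.0316). Adamtsl5 (chromosome 10, 80339110 to 80348412, minus strand), also a microfibril-binding protein, had WT levels of 65.8 (WT1), 68.02 (WT2) and 64.9 CPM (WT3), against 35.6 (KO1), 39.9 (KO2) and 45.3 CPM (KO3). The 3 WT values differed by little from each other, and the KO values lay well below them (log2 fold change -0.72, SE 0.13, adjusted p = 0.0212). Adamtsl3 (log2 fold change -0.26, adjusted p = 0.441) and Adamtsl1 (log2 fold change 0.18, adjusted p = 0.452), which encode the punctins, did not pass.

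The ADAMTS enzymes that remove the amino-terminal propeptide of fibrillar procollagens did not move together. Adamts14 (chromosome 10, 61197112 to 61273438, minus strand) had 21.7, 27.1 and 23.3 CPM in WT1, WT2 and WT3 and 15.2, 11.3 and 13.9 CPM in KO1, KO2 and KO3. It fell without overlap between the genotypes (log2 fold change -0.84, SE 0.17, adjusted p = 0.0292). Adamts2, the main processing enzyme of procollagens I and III in skin, had WT levels of 69.6 (WT1), 78.4 (WT2) and 82.8 CPM (WT3), against 33.5 (KO1), 35.4 (KO2) and 73.03 CPM (KO3). KO1 and KO2 were far below the WT mean of 77.0 CPM, but KO3 lay inside the WT range, and the test was not passed (log2 fold change -0.70, SE 0.29, adjusted p = 0.154). Without KO3, its log2 fold change was -1.15 and its adjusted p 0.000958, in a range of 0.000958 to 0.448 over the alternatives.

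Adamts3 (chromosome 5, 89677087 to 89883334, minus strand), a procollagen II propeptidase that also takes part in the activation of the lymphatic growth factor VEGF-C, had 2.40, 3.44 and 3.33 CPM in WT1, WT2 and WT3 and 6.65, 7.63 and 5.03 CPM in KO1, KO2 and KO3. It rose in all 3 libraries labelled KO, least in KO3 (log2 fold change 1.08, SE 0.24, adjusted p = 0.0385). Per kilobase of exon, Adamts3 made up 3.65 to 4.45% of the summed level of these 3 genes in the WT libraries, and 15.8% in KO1, 19.0% in KO2 and 8.12% in KO3. Summed per kilobase, the 3 genes had 12.1 to 14.2 CPM in the WT libraries and 7.74, 7.38 and 11.4 CPM in KO1, KO2 and KO3, so the larger share of Adamts3 stood within a lower total.

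**Figure D2:**
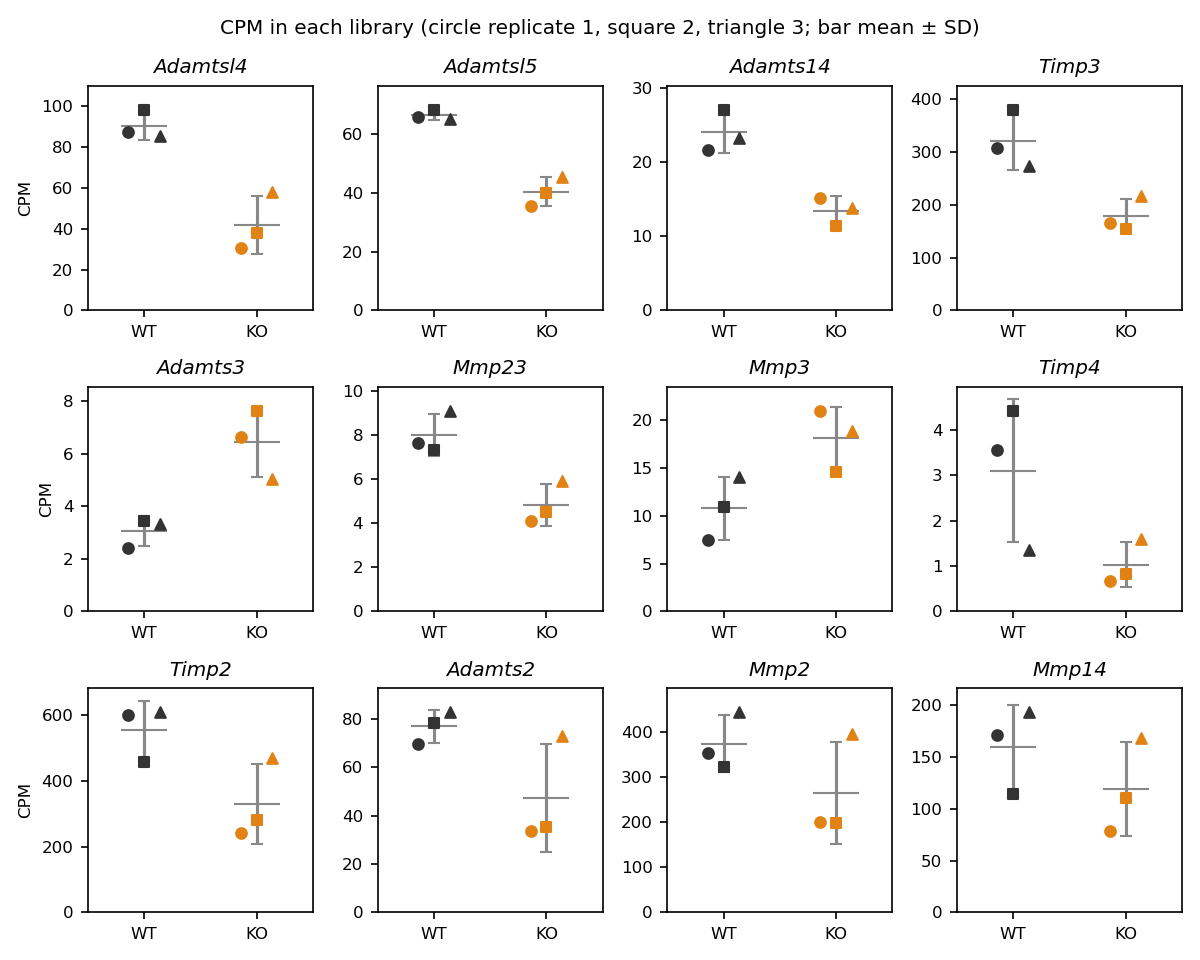
CPM (vertical axes, from 0) of 12 members in each library, the 5 called genes first, with the mean and SD of each genotype. In Adamts2 and Mmp2 the triangle of KO3 lies within the WT range, while in Adamtsl4, Adamtsl5, Adamts14, Timp3 and Adamts3 the genotypes do not overlap.

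The sequence before the start site was compared for the 5 called genes and for Mmp3, the higher member with the lowest p among those not called, to show in which letters they differ. For each gene, 150 bases before its RefSeq start are printed 5′ to 3′ (build GRCm38.p6), taken further upstream, by 40 bases in Timp3 and 19 in Adamts14, where GENCODE starts the gene earlier. Capitals mark matches on either strand to the AP-1 letters TGANTCA, to the TATA box as the letters TATAAA, or to the GC box, searched as the letters GGGCGG.
Timp3, chr10:86300222-86300371, plus strand: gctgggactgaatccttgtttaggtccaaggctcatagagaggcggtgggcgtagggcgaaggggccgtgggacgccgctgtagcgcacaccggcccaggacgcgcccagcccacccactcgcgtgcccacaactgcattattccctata
Adamtsl4, chr3:95687918-95688067, minus strand: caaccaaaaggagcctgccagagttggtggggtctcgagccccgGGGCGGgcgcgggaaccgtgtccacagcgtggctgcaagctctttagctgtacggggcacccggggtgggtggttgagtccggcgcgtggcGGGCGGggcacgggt
Adamtsl5, chr10:80348449-80348598, minus strand: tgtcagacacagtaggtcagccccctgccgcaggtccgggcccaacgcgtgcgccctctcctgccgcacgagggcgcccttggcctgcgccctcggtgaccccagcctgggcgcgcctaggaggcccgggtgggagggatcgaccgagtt
Adamts14, chr10:61273439-61273588, minus strand: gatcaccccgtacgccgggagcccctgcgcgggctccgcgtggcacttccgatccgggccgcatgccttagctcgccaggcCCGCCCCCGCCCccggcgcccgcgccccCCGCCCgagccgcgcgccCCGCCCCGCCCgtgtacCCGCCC
Adamts3, chr5:89883335-89883484, minus strand: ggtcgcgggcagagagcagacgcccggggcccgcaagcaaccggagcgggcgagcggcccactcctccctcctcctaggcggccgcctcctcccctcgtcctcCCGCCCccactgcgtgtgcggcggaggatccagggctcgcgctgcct
Mmp3, chr9:7445672-7445821, plus strand: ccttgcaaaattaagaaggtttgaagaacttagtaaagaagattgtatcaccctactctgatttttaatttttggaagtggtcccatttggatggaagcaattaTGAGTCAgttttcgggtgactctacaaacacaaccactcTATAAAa

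The called genes had GC-rich sequence there, from 64% G and C in Timp3 to 83.3% in Adamts14, which held 6 GC boxes. Adamtsl4 held 2 of them, Adamts3 held 1, and Timp3 and Adamtsl5 held none in these bases. Mmp3 had 35.3% G and C, with an AP-1 and a TATA match and no GC box. Among the 25 members with a sequence in the RefSeq table, the full 300 bases, from 250 before to 50 after the start, held the AP-1 letters in 2 (8.0%) and the TATA letters in 3 (12.0%), against 7.81% and 13.6% of all 32851 promoters in the table. GC boxes were in 18 of them (72.0%), against 35.7% of all promoters. The table holds several starts for some genes and is not limited to genes expressed in lip. Each member had 1 start and had passed the expression filter, so these shares do not compare like sets. The other 14 tested members had no sequence in the table. A match describes letters and not a site in use.

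Among the 14 MMP genes, 9 had negative and 5 positive log2 fold changes, and 0 passed the test. At an unadjusted p under 0.05, Mmp23 was lower and Mmp3 higher, and edgeR's exact test and DESeq2 called both. Mmp3, stromelysin-1, which cuts many matrix proteins and activates other pro-MMPs, had WT levels of 7.44 (WT1), 10.9 (WT2) and 14.03 CPM (WT3), against 20.98 (KO1), 14.6 (KO2) and 18.9 CPM (KO3). The lowest KO value was just above the highest WT value (log2 fold change 0.75, SE 0.25, adjusted p = 0.102), and over the alternatives the adjusted p lay between 0.035 and 0.277. Mmp23, a small MMP without the hemopexin domain, had 7.62, 7.31 and 9.08 CPM in WT1, WT2 and WT3 and 4.09, 4.50 and 5.90 CPM in KO1, KO2 and KO3. The genotypes did not overlap (log2 fold change -0.73, SE 0.20, adjusted p = 0.0727, range over the alternatives 0.00922 to 0.281), and without KO3 its log2 fold change was -0.89 with an adjusted p of 0.00922. Mmp25, a glycolipid-anchored MMP of leukocytes, was higher in each library labelled KO at a low level, with WT levels of 1.74 (WT1), 1.28 (WT2) and 1.84 CPM (WT3), against 1.996 (KO1), 2.14 (KO2) and 3.16 CPM (KO3) (log2 fold change 0.58, SE 0.27, adjusted p = 0.196).

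The gelatinase Mmp2, which cuts denatured collagen and basement membrane collagen, had 354, 322 and 444 CPM in WT1, WT2 and WT3 and 201, 197 and 395 CPM in KO1, KO2 and KO3. KO1 and KO2 were below all WT libraries, and KO3 lay between WT1 and WT3 (log2 fold change -0.50, SE 0.28, adjusted p = 0.269). Mmp14, the membrane-bound activator of pro-MMP2, had WT levels of 171 (WT1), 114 (WT2) and 193 CPM (WT3), against 78.8 (KO1), 111 (KO2) and 168 CPM (KO3). Here too KO3 lay among the WT values (log2 fold change -0.42, SE 0.29, adjusted p = 0.362). Without KO3 both genes passed, with log2 fold changes of -0.90 for Mmp2 (adjusted p = 0.00512) and -0.75 for Mmp14 (adjusted p = 0.0376). In that comparison 16.2% of all tested genes were called lower. Over the alternatives the adjusted p of Mmp2 lay between 0.00512 and 0.657 and that of Mmp14 between 0.0376 and 0.808. Mmp19 also passed without KO3. The other gelatinase, Mmp9, varied widely within the WT, from 2.38 CPM in WT2 to 9.58 CPM in WT1, and its KO values of 3.43 to 6.81 CPM lay inside that range (log2 fold change -0.20, SE 0.46, adjusted p = 0.798). Its sign turned without WT replicate 1 (0.34) and without KO replicate 1 (0.083).

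None of the remaining MMPs passed the test or had an unadjusted p under 0.05, and the exact test called 0 of them. Mmp11, stromelysin-3, had a log2 fold change of -0.28 and shares 155 exon bases with Chchd10 on the opposite strand, which had 60.2 to 107.8 CPM among WT libraries and 28.2 to 64.1 among those labelled KO. Mmp15, Mmp16, Mmp17, Mmp19 and Mmp28 had log2 fold changes of 0.02, -0.46, -0.42, -0.47 and -0.28. Mmp19 shares 789 exon bases, 22.3% of its exons, with Tmem198b on the opposite strand, which had 14.5 to 17.5 CPM among WT libraries and 10.1 to 12.3 among those labelled KO. Mmp12, the macrophage elastase, had 1.56 to 4.89 CPM among WT libraries and 2.40 to 3.74 among those labelled KO (log2 fold change 0.09, adjusted p = 0.909). Mmp27 stayed close to the filter's minimum in all libraries (log2 fold change 0.16, adjusted p = 0.77).

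Many MMP genes lie side by side on chromosome 9, and 8 of them had a row in the matrix, from Mmp13 (start 7272514) to Mmp20 (end 7674979). Expression along this stretch was low apart from Mmp3. Mmp12 and Mmp27 also passed the filter, while Mmp13, Mmp1b, Mmp10, Mmp8 and Mmp20 did not. The collagenase Mmp13 had 0.270 to 1.02 CPM among WT libraries and 0.263 to 0.960 among those labelled KO. Mmp8, the collagenase of neutrophils, had at most 4 counts in a WT library and 6, 12 and 1 counts in KO1, KO2 and KO3. Mmp10 had 2 to 4 counts in each library, and Mmp1b and Mmp20 had a single count in 1 library each. None of the 3 collagenase genes with a row was therefore tested.

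All 7 proteoglycan-cleaving ADAMTS genes had negative log2 fold changes in the comparison of all libraries, from -0.40 (Adamts9) to -0.05 (Adamts8), but 0 passed the test and 0 had an unadjusted p under 0.05, and neither the exact test nor DESeq2 called any. In each of the 7 the genotypes overlapped. Adamts1, the most abundant of them per exon length, had 51.1, 74.1 and 61.4 CPM in WT1, WT2 and WT3 and 74.04, 45.3 and 48.8 CPM in KO1, KO2 and KO3. Its highest values were in WT2 and KO1 (log2 fold change -0.15, SE 0.22, adjusted p = 0.672), and its sign turned without WT replicate 2 (0.052) and without KO replicate 2 (0.038). Adamts9, a versican-cleaving enzyme, had WT levels of 15.7 (WT1), 19.6 (WT2) and 22.2 CPM (WT3), against 13.7 (KO1), 16.6 (KO2) and 13.4 CPM (KO3) (log2 fold change -0.40, SE 0.18, adjusted p = 0.181). It shares 1381 exon bases (9.18%) with A730049H05Rik on the opposite strand, which did not exceed 1.02 CPM. Adamts5 and Adamts4, known as the main aggrecanases, had log2 fold changes of -0.22 and -0.24. Adamts20, which is known from a pigmentation mutant, varied from 8.60 to 16.9 CPM within the WT.

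Of the 7 other ADAMTS genes, 5 had negative log2 fold changes and 0 passed the test or had an unadjusted p under 0.05, in the exact test as well. Adamts10, which acts on fibrillin microfibrils, had 26.5, 44.3 and 30.9 CPM in WT1, WT2 and WT3 and 26.1, 24.9 and 25.7 CPM in KO1, KO2 and KO3. The 3 KO values were nearly equal and lay below every WT value, of which WT2 was the highest (log2 fold change -0.41, SE 0.20, adjusted p = 0.207). Adamts7 lay lower without overlap too (log2 fold change -0.38, adjusted p = 0.246). Adamts18 (log2 fold change 0.21, adjusted p = 0.551) and Adamts19 (log2 fold change 0.07, adjusted p = 0.928) had positive log2 fold changes.

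Levels were compared between genes as CPM per kilobase of exon. In the WT, Timp2 had the highest level (142 ± 22.03, SD, n = 3), followed by Mmp2 (111 ± 18.7), Timp3 (39.3 ± 6.59), Mmp14 (26.8 ± 6.88), Adamtsl4 (21.5 ± 1.63) and Adamtsl5 (14.03 ± 0.340). Timp2 and Mmp2 overlapped in range, as did Mmp14 and Adamtsl4. Timp2, Timp3, Mmp2 and Mmp14 together made up 70.2 to 74.8% of the summed level of the 39 genes in the WT libraries and 64.2 to 73.8% in the libraries labelled KO. Of the 10 genes with the highest WT level, 9 had negative log2 fold changes (median -0.60), and of the 10 with the lowest, 5 did (median 0.01). The WT level that sets this order is also the reference of the fold change. Genes picked for a high WT level can therefore lean to negative changes and those picked for a low one to positive changes. How far this shaped the counts was not tested. No link between level and change is drawn from these counts. In the libraries labelled KO, Mmp3 reached 10.1 ± 1.81, next to Adamtsl4 at 10.01 ± 3.39.

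**Figure D3:**
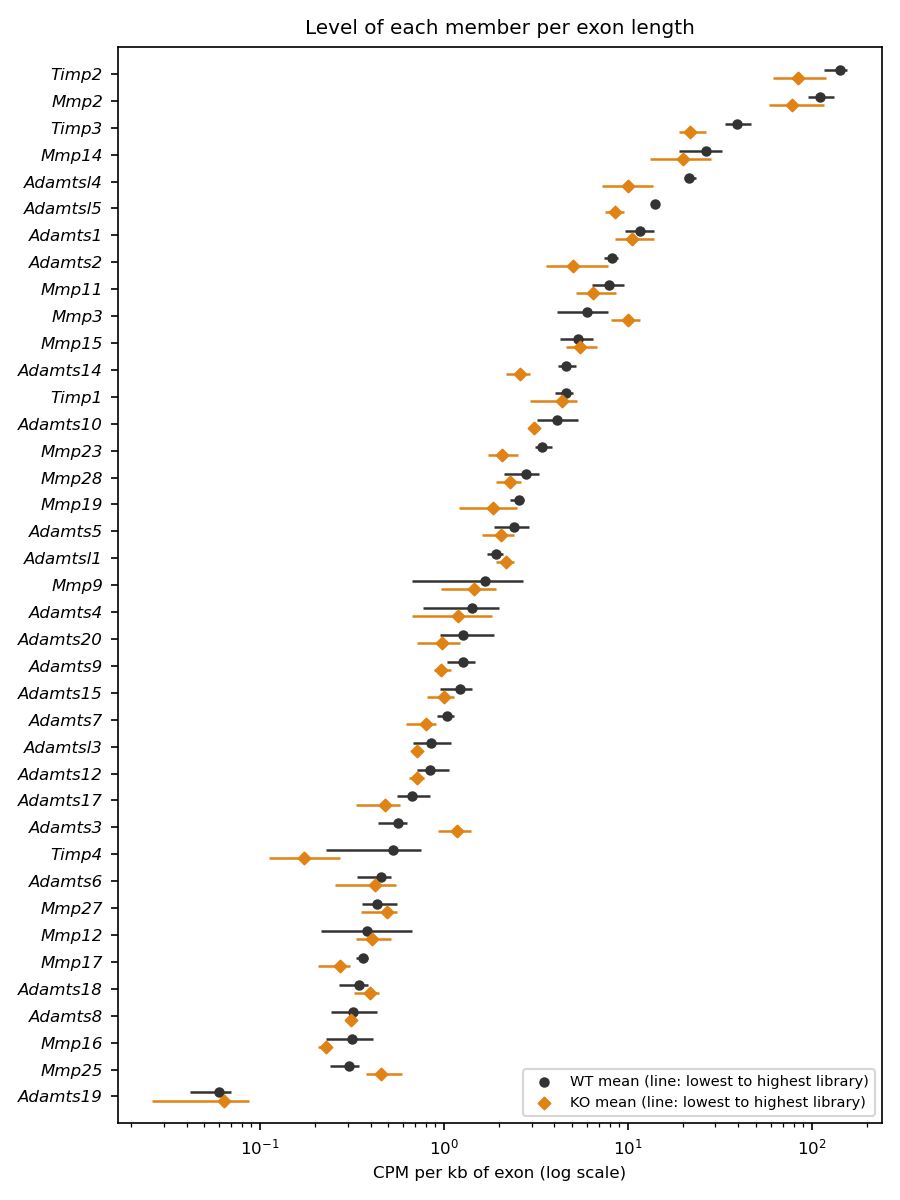
CPM per kilobase of exon (log axis) of the 39 genes, ordered by their WT mean, with the mean and the range over the libraries of each genotype. Timp2 and Mmp2 lead the order, and the ranges of the genotypes are apart in 11 genes, among them Timp3, Adamtsl4, Adamtsl5, Adamts14 and Adamts3.

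The inhibitors and the proteases were then set against each other within each library. The 4 TIMP genes summed to 196, 169 and 195 CPM per kilobase in WT1, WT2 and WT3, and to 87.2, 93.99 and 152 in KO1, KO2 and KO3. The 14 MMP genes summed to 165, 142 and 199.8 in the WT libraries, and to 103, 104 and 183 in the libraries labelled KO. The TIMP sums did not overlap between the genotypes, whereas the MMP sum of KO3 lay inside the WT range. The ratio of the TIMP sum to the MMP sum was 1.19, 1.19 and 0.976 in the WT libraries and 0.846, 0.904 and 0.830 in the libraries labelled KO. It was lower in each of the latter, KO3 included, and does not depend on how the libraries are scaled. No test was made of these sums, since they are scores over chosen genes. Timp2 and Timp3 held 94.2 to 97.6% of the TIMP sum, and Mmp2 and Mmp14 70.6 to 82.1% of the MMP sum, so the ratio is in the main that of these 4 transcripts.

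**Figure D4:**
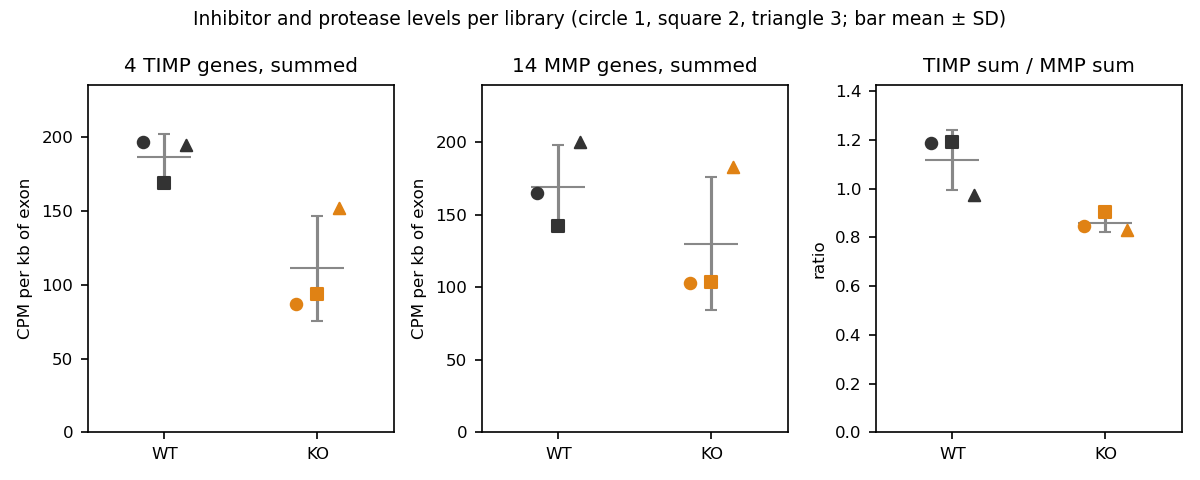
Summed CPM per kilobase of exon of the TIMP genes and of the MMP genes, and their ratio, in each library (all axes from 0), with mean and SD. The 3 KO ratios, from 0.830 to 0.904, lie below the 3 WT ratios, from 0.976 to 1.19.

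Several changes were smaller in KO3. In 8 members, Timp2, Timp4, Mmp2, Mmp11, Mmp14, Mmp19, Adamts2 and Adamts17, KO1 and KO2 lay below all WT libraries and KO3 did not. That is 20.5% of the members and was so in 13.7% of all tested genes. KO3 was the library labelled KO nearest to the WT mean in 23 members (59.0%), near the 56.8% of all tested genes. In the 5 called genes the genotypes did not overlap, so the change in KO3 necessarily had the same direction. It was the smallest of the 3 in 4 of them. In Adamts14, KO1 was nearer to the WT.

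**Figure D5:**
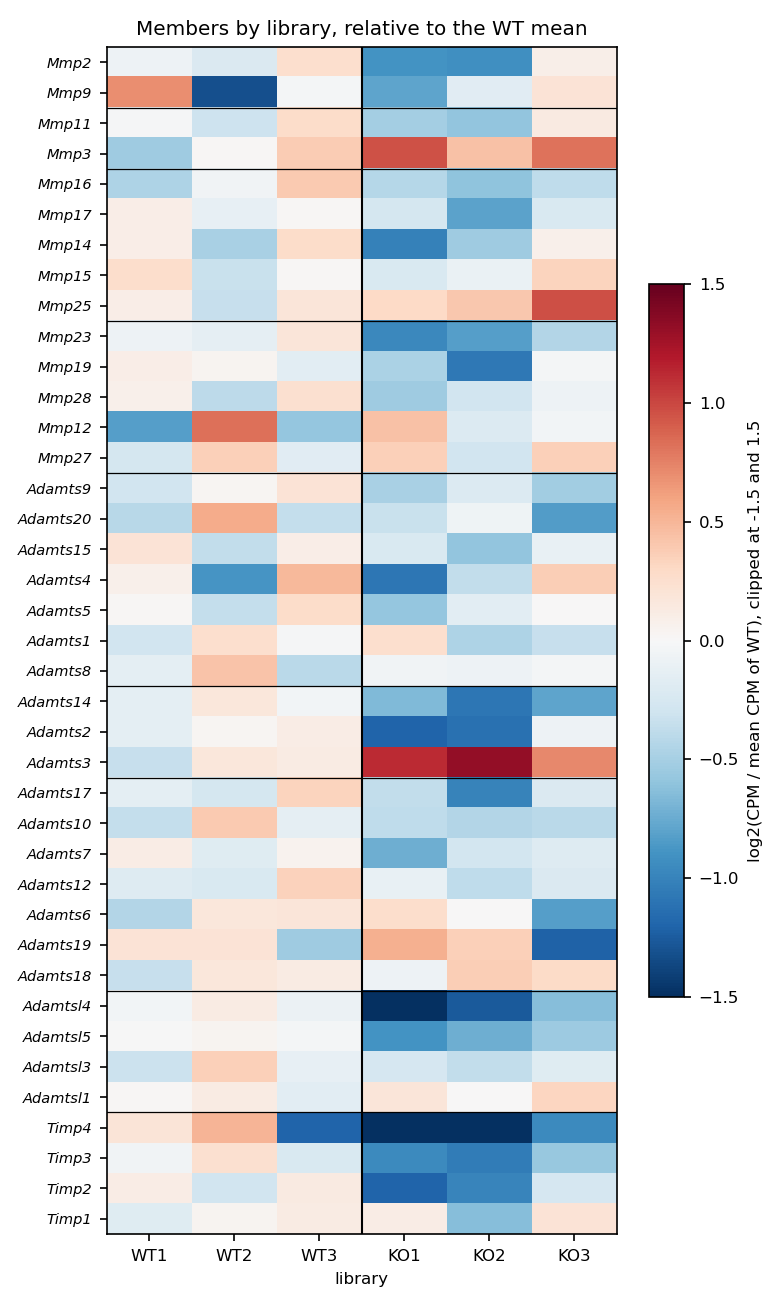
Log2 ratio of each member's CPM in each library to its WT mean (colour scale from -1.5 to 1.5, blue lower, red higher), with members grouped by role. The columns of KO1 and KO2 are mostly blue, while the column of KO3 is paler for Mmp2, Mmp14, Adamts2 and Timp2.

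The genes that act with this family were read from 7 lists. Over all tested genes, 4.38% were called higher and 2.09% lower. Of 11 tested genes for other inhibitors and clearance receptors, Reck fell and Cd44 rose. Reck, a membrane-anchored inhibitor of several MMPs, had WT levels of 44.3 (WT1), 57.5 (WT2) and 49.97 CPM (WT3), against 25.2 (KO1), 24.95 (KO2) and 34.98 CPM (KO3) (log2 fold change -0.83, SE 0.18, adjusted p = 0.0364). Its genotypes did not overlap, so Reck and Timp3 were both lower. Cd44, a hyaluronan receptor that can hold MMPs at the cell surface, had 223 ± 14.6 CPM in WT against 380.4 ± 24.8 CPM in the KO-labelled libraries (SD, n = 3 each) (log2 fold change 0.77, SE 0.13, adjusted p = 0.0129).

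Among 10 tested activators of pro-MMPs and their regulators, Serpinb2, the inhibitor of plasminogen activators known as PAI-2, rose (54.99 ± 21.6 CPM in WT against 135 ± 35.9 CPM in the KO-labelled libraries (SD, n = 3 each); log2 fold change 1.30, SE 0.30, adjusted p = 0.0433) and 0 fell. Of 8 tested astacins and other metalloproteinases, Pappa, which cuts proteins that bind insulin-like growth factors, rose (22.4 ± 2.09 CPM in WT against 49.6 ± 11.4 CPM in the KO-labelled libraries (SD, n = 3 each); log2 fold change 1.15, SE 0.19, adjusted p = 0.0127). None of the 11 tested ADAM genes passed in the quasi-likelihood or the exact test. At an unadjusted p under 0.05, 2 were higher and 3 lower, where the shares over all tested genes were 13.5% and 16%. The lowest p was that of Adam17, the TNF-releasing enzyme inhibited by TIMP3 (log2 fold change 0.48, adjusted p = 0.103).

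Of 26 tested genes for matrix substrates, 22 had negative log2 fold changes, with a median log2 fold change of -0.66 against -0.02 over all tested genes, but 0 passed the quasi-likelihood test at an adjusted p under 0.05. At an unadjusted p under 0.05, 8 of the 26 were lower and 1 was higher, against 16% and 13.5% of all tested genes. The exact test called 5 of the 26 lower, against 7.15% of all tested genes. In 7 of the 26 the KO values were all lower than the WT values, against 18.1% of all tested genes. Summed over the 27 listed genes, the level was 11209, 10330 and 13344 CPM in WT1, WT2 and WT3 and 5055, 6177 and 10711 CPM in KO1, KO2 and KO3, so KO3 lay in the WT range here too. The lowest p was that of Comp, a cartilage and tendon matrix protein that ADAMTS enzymes cut (log2 fold change -0.71, adjusted p = 0.0679). Of 14 AP-1 and ETS factors, Fosl1, a subunit of AP-1, rose (4.62 ± 1.22 CPM in WT against 12.02 ± 0.522 CPM in the KO-labelled libraries (SD, n = 3 each); log2 fold change 1.38, adjusted p = 0.00895). Of 7 tested cytokines that act on MMP genes, Il1b rose at a low level (0.725 ± 0.146 CPM in WT against 2.999 ± 0.919 CPM in the KO-labelled libraries (SD, n = 3 each); log2 fold change 2.03, adjusted p = 0.0113) and Tgfb2 fell (36.8 ± 2.29 CPM in WT against 20.3 ± 4.26 CPM in the KO-labelled libraries (SD, n = 3 each); log2 fold change -0.86, adjusted p = 0.0311).

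Marker genes of the cell types in the tissue were summed in each library. The 10 fibroblast markers, all tested, summed to 4944, 4932 and 6205 CPM in the WT libraries and to 2217, 2849 and 4961 CPM in KO1, KO2 and KO3. Most of each sum came from Col1a1 and Col1a2, which are also among the matrix substrates. Their means were 1877 and 2059 CPM in WT against 1038 and 1183 CPM in the KO-labelled libraries. Dcn, the next most abundant, had 764 ± 196 against 629 ± 52.8 CPM (SD, n = 3 each). The sum of KO3 lay within the WT range, and 9 of the 10 markers had negative log2 fold changes (median -0.53), all but Fbln1 (0.10). The quasi-likelihood test called 0 of them (3 lower at an unadjusted p under 0.05, and 2 lower in the exact test). The 9 skeletal muscle markers summed to 9409 to 12468 CPM among WT libraries and 4039.6 to 7946 among those labelled KO. The quasi-likelihood test called 2 of them lower. All 9 were lower at an unadjusted p under 0.05, and the exact test called 7 lower, against 16% and 7.15% of all tested genes. In 8 the KO values all lay below the WT values, as in 18.1% of all tested genes. The 7 suprabasal keratinocyte markers summed to 18088 to 22843 CPM among WT libraries and 29166 to 44847 among those labelled KO. The 4 wound keratinocyte markers summed to 3841 to 5484 CPM among WT libraries and 5785 to 8827 among those labelled KO. The quasi-likelihood test called 1 higher in each list. At an unadjusted p under 0.05, 5 suprabasal and 2 wound markers were higher, and the exact test called 5 and 3 higher. Over all tested genes these shares were 13.5% and 7.76%. The 7 basal keratinocyte markers summed to 10798 to 11788 CPM among WT libraries and 10204 to 12054 among those labelled KO. For macrophages the sum of 10 markers was 342 to 389.6 CPM among WT libraries and 266 to 375 among those labelled KO, and for endothelium, with 7 markers, 251 to 301 CPM among WT libraries and 162 to 299.7 among those labelled KO.

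Of 11 neutrophil markers, 9 had a row and 4 were tested. The 9 summed to 32.1, 10.8 and 13.99 CPM in WT1, WT2 and WT3 and to 141, 12.9 and 15.3 CPM in KO1, KO2 and KO3. Most of the sum of KO1 came from S100a8 (64.8 CPM) and S100a9 (67.1 CPM), whereas Cxcr2 had 4.71 and Csf3r 3.53 CPM there. The defining granule genes Mpo, Ngp, Camp and Ltf did not reach the filter. Of 9 bone, cartilage and tooth markers, 7 had a row and summed to 18.04 to 23.8 CPM among WT libraries and 8.29 to 16.7 among those labelled KO. Hair follicle markers (7) summed to 6553 to 8158 CPM among WT libraries and 4333 to 5672 among those labelled KO, smooth muscle and pericyte markers (5) to 218 to 260.0 CPM among WT libraries and 157 to 194 among those labelled KO, mast cell markers (5) to 198 to 255 CPM among WT libraries and 144 to 191 among those labelled KO and adipocyte markers (5) to 77.3 to 98.2 CPM among WT libraries and 52.5 to 55.4 among those labelled KO. In each of these 4 lists the sums did not overlap between genotypes. The quasi-likelihood test called 1 hair follicle, 1 smooth muscle and 1 adipocyte marker lower. At an unadjusted p under 0.05, 6 hair follicle, 2 smooth muscle, 3 mast cell and 3 adipocyte markers were lower. The exact test called 4, 1, 1 and 2 of them lower, in the same order. The shares of all tested genes that were lower were 2.09% in the quasi-likelihood test, 16% at an unadjusted p under 0.05 and 7.15% in the exact test. No listed marker with a row was at 0 in all libraries. The part of any of these cell types in the changes of the members was not tested.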

How the data were processed

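mRNA of whole top lip was sequenced as paired-end libraries, 1 per mouse, from 3 WT and 3 KO mice. Reads were aligned by the authors against GRCm38 (TopHat2 2.0.8, Bowtie2 2.1.0), and the deposited values are raw HTSeq-count counts per gene. Whether strand was used in counting is not given in the sources used here. All columns were used (0 left out), and 0 rows named no gene.

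The 15009 genes that reached 1 CPM in 3 or more libraries were scaled by TMM and compared with edgeR's quasi-likelihood test (glmQLFit with legacy=FALSE, glmQLFTest), with Benjamini-Hochberg adjustment over all of them and a threshold of 0.05. Standard errors are those implied by the F statistics. R 4.3.3, edgeR 4.0.16, limma 3.58.1, DESeq2 1.42.0 and, for figures, Python 3.11.15 with matplotlib 3.10.9 were used, and the procedure was tested on simulated data. Exon lengths and positions come from GENCODE M21 (GRCm38), in which all 39 genes were found, and promoter sequences from RefSeq (GRCm38.p6). Counts of 3 as a limit cover counting error only.

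The members, the 7 partner lists and the 13 marker lists were chosen with earlier results of these data known. Named singly were the called members, 5 further members per direction by lowest p, the most abundant of each role per exon length and well-known inhibitors and proteases. Other members named with values follow their roles and were chosen after their values were seen. From partner lists, called genes or the gene with the lowest p were named. Alternatives, 12 besides left-out libraries, covered the test, scaling, filter, replicate block and threshold.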

Additional observations from a re-analysis of the deposited data

How the results depend on the processing

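The 5 called members were the same genes under limma-voom, the older quasi-likelihood fit, scaling by upper-quartile factors, by DESeq2's size factors or by totals alone, and filters of 10 counts per library or a mean of 1 CPM. Without a filter Adamtsl5 was not called, which left 3 lower members. edgeR's exact test called 2 members higher and 7 lower, and DESeq2's Wald test 2 higher and 6 lower, each with all 5 among them. With each library left out, between 0 and 1 members were higher and between 0 and 11 lower, the highest count of lower members without KO replicate 3. Over all tested genes, the main counts were 657 higher and 314 lower. They were 1165 and 1073 with the exact test, 1426 and 1142 with DESeq2 and 1248 and 1281 at an adjusted p under 0.1, and with each library left out lay between 208 and 2496 for higher and between 18 and 2395 for lower genes. The number of lower genes was 207 with DESeq2's size factors, 204 without a filter and 204 with a minimum of 10 counts per library. The cause of these differences was not tested.

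A replicate block left 0 members higher and 2 lower (5.13%), Adamtsl4 and Adamtsl5, and over all tested genes 3.86% were higher and 1.45% lower. The labels number the mice without saying that a number is shared, and the deviations of same-numbered libraries from their group means correlated at -0.193, 0.313 and 0.332 for numbers 1, 2 and 3, so the numbers were not taken as pairs.

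Left-out libraries were examined singly for 21 named members, and signs turned in 3 of them, none of them called: Adamts1 (0.052 without WT replicate 2, 0.038 without KO replicate 2, lowest -0.34), Mmp9 (0.34 without WT replicate 1, 0.083 without KO replicate 1, lowest -0.52) and Timp1 (0.012 without WT replicate 2, 0.22 without KO replicate 2, lowest -0.22). In the called genes the genotypes did not overlap, so leaving out a library could not be expected to turn their sign. At these depths members near 1 CPM rest on few counts, 19 to 29 per library in Mmp27.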

Other observations

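The annotated span of Adamtsl1 overlaps that of a second gene on the same strand, Sh3gl2, which encodes an endophilin of synaptic vesicle endocytosis. The genes share 0 exon bases. Sh3gl2 had 14.7 ± 1.36 CPM in WT against 26.9 ± 2.80 CPM in the KO-labelled libraries (SD, n = 3 each), and it rose (log2 fold change 0.87, adjusted p = 0.0154 in edgeR's quasi-likelihood test), higher in 3 of 3 libraries, while Adamtsl1 did not pass (log2 fold change 0.18, adjusted p = 0.452). Sh3gl2 was chosen after its values were seen, and the difference between the neighbours was not tested.

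Of the TIMP genes, 3 lie within a synapsin gene on the opposite strand: Timp1 in Syn1, Timp4 in Syn2 and Timp3 in Syn3. The exon bases shared were 0 for Timp1, 90 for Timp4 and 1733 for Timp3. Syn1 had 0.723 to 1.26 CPM among WT libraries and 0.395 to 1.07 among those labelled KO.

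Of the 4 members called lower, Adamts14, Adamtsl5 and Timp3 lie on chromosome 10, which holds 5 of the 39 genes, and Adamtsl4 lies on chromosome 3. No test was made of this, and the share of all tested genes on chromosome 10 that were called lower was not determined.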
